A study of Mus musculus with 23 samples.

Results

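Expression of 56 genes of glutathione, thioredoxin and antioxidant metabolism was followed in mouse lung epithelial cells, from fresh isolation through culture at an air-liquid interface to treatment with NTHi (non-typeable Haemophilus influenzae, a bacterium of the airways). The 56 genes were taken by name from the 41073 genes of the deposited count tables: those whose symbol begins with Gsta, Gstm, Gstp, Gstt, Gsto, Gstk, Gstz, Gpx or Prdx and a digit, without pseudogenes, and 17 single genes (Gclc, Gclm, Gss, Gsr, Nqo1, Hmox1, Txn1, Txnrd1, Srxn1, Slc7a11, Sod1, Sod2, Sod3, Cat, Nfe2l2, Keap1 and Sqstm1). The rule uses symbols only, and no measured value, but the genes were chosen with earlier results of these data known. There were 24 glutathione S-transferases, 8 glutathione peroxidases and 7 peroxiredoxins among them. In every comparison 52 of the 56 passed the filter on low counts. The other 4 (Gstt4, Gpx5, Gpx6 and Prdx6b) were at or near 0 in every library, and Gpx5 had no count in any of the 23, which allows up to 0.0355 CPM over the isolation libraries and up to 0.0128 CPM over each other group (counting error only).

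Glutathione is a small thiol that cells make from glutamate, cysteine and glycine and keep at high concentration. Glutathione S-transferases attach it to reactive compounds, and glutathione peroxidases use it to reduce peroxides. Peroxiredoxins do the same with electrons from thioredoxin, superoxide dismutases turn superoxide into hydrogen peroxide, and catalase breaks hydrogen peroxide down. Many of these genes are targets of the transcription factor NRF2 (gene Nfe2l2), which the adaptor KEAP1 marks for degradation until oxidants or electrophiles modify KEAP1. In the lung, the epithelium meets inhaled oxidants and those released during infection.

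The cells carried the surface protein EpCAM and came from C57BL/6 wild type mice (C57BL/6J in the series' design text). They were grown on transwell filters, and the labels call them airway epithelial cells. Fresh isolation gave 3 libraries, the day of airlift (when the upper face of the culture is exposed to air, before any bacteria) gave 6, untreated culture at day 4 gave 7 (the control group) and culture with NTHi to day 4 gave 7. All groups shared the same genotype. The sources used here do not give the dose of NTHi, whether the bacteria were alive, or the age and sex of the mice. Each of 3 experiments (A, B and C) held every group, and a library is named here by group, experiment and replicate, so that control C1 is replicate 1 of experiment C in the control group. Isolation has 1 library in each experiment, with no replicate number. Whether replicates were separate animals or cultures is not in the labels, so the p-values speak only of the spread among these libraries, part of which may be technical.

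Libraries held 32323375 to 39081663 counts. Levels are in CPM, the normalised read count relative to the TMM-scaled library total. Differences are log2 fold changes, first-named group over second, with their standard error (SE), from edgeR's quasi-likelihood test, and a gene was called at a Benjamini-Hochberg adjusted p below 0.05 over all genes tested. The 5 general epithelial markers (Epcam, Cdh1, Krt8, Krt18 and Krt19) summed to 4881 to 8575 CPM in every library. Marker genes of alveolar type 2 and club cells were also high at isolation: the 8 type 2 markers summed to 80237 to 105941 CPM there, against 1128 to 1215 at airlift, 3394 to 4089.98 in control and 1298 to 1539 with NTHi. The 7 club and secretory markers summed to 169740 to 187125, 19304 to 26965, 4059 to 5868 and 2467 to 3044 CPM in the same order. In bulk RNA, fewer cells of a type and less RNA per cell cannot be told apart. Control C1 and NTHi C3 stood apart, with median correlations of 0.982 and 0.977 with their groups, where the other libraries had 0.988 to 0.995.

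Promoters of some of these genes carry the antioxidant response element, the DNA motif bound by NRF2, and its core was searched to show the sequence context of the members. The core TGACNNNGC was looked for on both strands of RefSeq promoters, 250 bases before to 50 bases after each gene start (build GRCm38.p6, while the files use GRCm39). Of 59 promoters of the 46 members in the table, 9 held it (15.3%), beside 4071 of all 32851 promoters (12.4%), so the core was about as frequent among the members as among all genes. The 9 genes were Gsta3, Gstm5, Gstm7, Gclm, Prdx1, Txnrd1, Srxn1, Sod1 and Nfe2l2. A match describes these letters only and is not a measured site. Gsta4, Gsta5, Gsta13, Gstt2, Prdx6, Prdx6b, Gclc, Gsr, Hmox1 and Sod3 were not in the table. The 250 bases before the start are printed for 3 genes, 1 each of glutathione synthesis, the peroxiredoxins and thioredoxin reduction, with the match in capitals. All 3 lie on the + strand and carry the match on the other strand, so that it reads GCNNNGTCA here. Gclm is at chr3:122245307-122245556 with its match at position -134 from the start, Prdx1 at chr4:116685349-116685598 with its match at -133, and Txnrd1 at chr10:82858956-82859205 with its match at -92.
Gclm: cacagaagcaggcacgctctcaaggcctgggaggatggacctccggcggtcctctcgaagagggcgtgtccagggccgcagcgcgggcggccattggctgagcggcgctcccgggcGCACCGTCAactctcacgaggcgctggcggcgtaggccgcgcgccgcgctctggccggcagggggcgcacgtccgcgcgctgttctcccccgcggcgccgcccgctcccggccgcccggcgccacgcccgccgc
Prdx1: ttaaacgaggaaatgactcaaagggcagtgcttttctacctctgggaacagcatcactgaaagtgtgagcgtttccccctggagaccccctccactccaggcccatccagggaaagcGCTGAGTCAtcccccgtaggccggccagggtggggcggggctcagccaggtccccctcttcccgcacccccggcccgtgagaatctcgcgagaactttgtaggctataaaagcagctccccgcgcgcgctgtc
Txnrd1: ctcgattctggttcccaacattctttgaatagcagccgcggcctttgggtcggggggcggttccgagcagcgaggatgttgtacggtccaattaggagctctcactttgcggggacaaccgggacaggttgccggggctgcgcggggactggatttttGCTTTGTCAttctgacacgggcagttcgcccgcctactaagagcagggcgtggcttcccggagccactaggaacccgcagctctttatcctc

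With NTHi, more of the genes fell than rose. Of the 52 tested, 9 were called higher and 27 lower than in control, where 20.1% and 20.4% of the 16337 genes tested were called in these directions (40.5% in either). The members' median log2 difference was -0.21, beside -0.00013 over all genes. Scaling by library totals alone gave 8 members higher and 29 lower, while over all genes it changed the split from 3281 higher and 3338 lower to 2282 and 4416. Every NTHi library lay above every control library for 3 members (Gpx3, Gpx7 and Sod2; 8.26% of all genes) and below for 9 (Gsta4, Gstm1, Gstm2, Gstt1, Gstt3, Gstk1, Gpx4, Prdx6 and Gss; 7.52%). For the other 40 the groups overlapped. All 36 called members had the same sign in experiments A, B and C. They were called from these same 3 experiments together, so this agreement is largely set by the selection and is not separate evidence. A test of whether the NTHi effect differed between experiments called 0 of the 52 members and 0 of 16337 genes (edgeR), with 1 member and 675 genes at an unadjusted p below 0.05; DESeq2 called 5 genes.

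Markers of several epithelial cell types were lower with NTHi as well. The 7 alveolar type 1 markers summed to 3286 to 3961 CPM in control and 1467 to 1599 CPM with NTHi, with 1 called higher and 6 lower. The 5 basal markers summed to 113 to 412 and 52.9 to 187 CPM, with 4 called lower. Of the club and secretory markers 6 of 7 were called lower, and of the type 2 markers 4 of 8 were lower and 3 higher. Of the multiciliated markers 1 of 6 was called lower and none higher. Of the general epithelial markers 2 of 5 were called higher and 2 lower. The shares of all genes called higher and lower were 20.1% and 20.4%. The part of these markers in the members' differences was not tested.

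**Figure D1:**
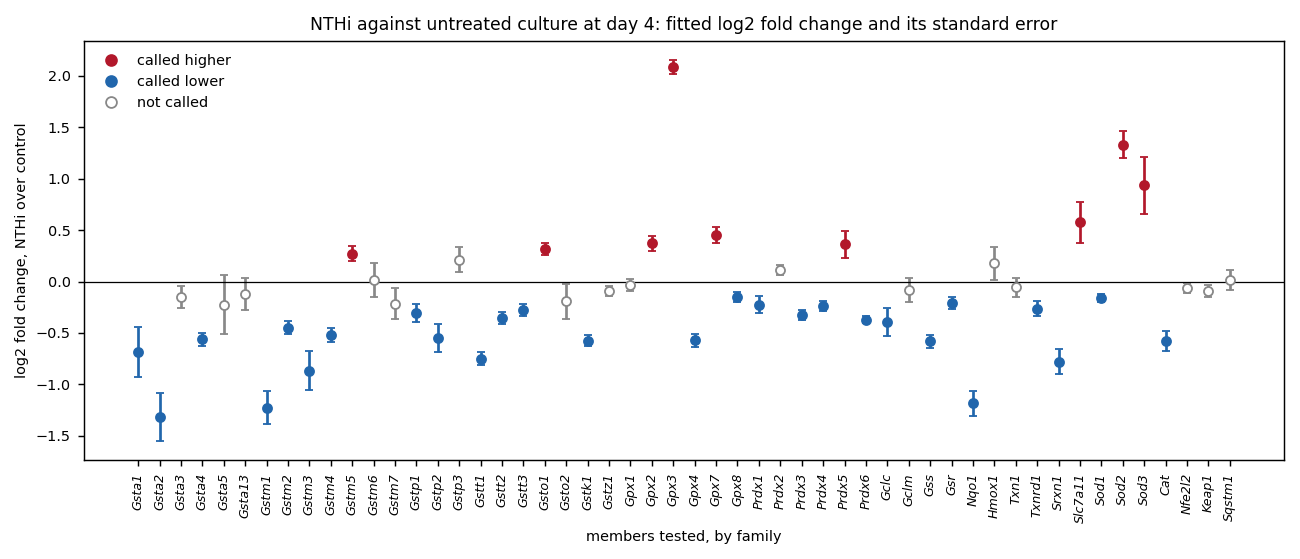
Fitted log2 fold change (vertical axis) of NTHi over untreated culture at day 4 for the 52 members tested, ordered by family along the horizontal axis; bars are 1 standard error, red points are called higher, blue points lower and open points not called. Gpx3 and Sod2 stand highest, at 2.08 ± 0.07 and 1.33 ± 0.13, and Gsta2, Gstm1 and Nqo1 lowest, at -1.32, -1.22 and -1.18.

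Before treatment, the same genes differed widely between the stages of culture. From isolation to airlift, 25 members were called higher and 22 lower (37.9% and 36.7% of the 18302 genes tested; 74.6% in either direction), with a median of 0.15 beside 0.0026 over all genes. From airlift to day 4, 12 were called higher and 27 lower (26.9% and 27.7%; 54.5% in either direction), with a median of -0.30 beside -0.021. Day 4 control against isolation gave 15 higher and 28 lower (38.8% and 37.7%; 76.6% in either direction), with a median of -0.37 beside 0.017. Every airlift library lay above every isolation library for 21 members (33.7% of all genes) and below for 22 (33.2%). Control lay wholly above airlift for 7 (15.1%) and below for 22 (13.3%), and wholly above isolation for 9 (33.9%) and below for 27 (32.1%). Called members had the same sign in all 3 experiments in 47 of 47, 38 of 39 and 42 of 43 cases, in the order of the comparisons above. Here too the selection used the same experiments. The airlift libraries enter the first pair of these comparisons and the control libraries also the NTHi comparison, so the comparisons are not independent of each other. The isolation libraries had TMM factors of 0.741 to 0.77 (0.983 to 1.10 in the others), and scaling by totals alone raised the median of all genes to 0.49 in both comparisons with isolation. Under it the members' counts became 29 higher and 17 lower at airlift and 22 and 22 at day 4, and the split over all genes went from 6928 higher and 6718 lower to 10131 and 4223 at airlift and from 7108 and 6904 to 10149 and 4497 at day 4. Values below are on the TMM scale, and each member whose direction against isolation turned under the other scaling is named where it is described.

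**Figure D2:**
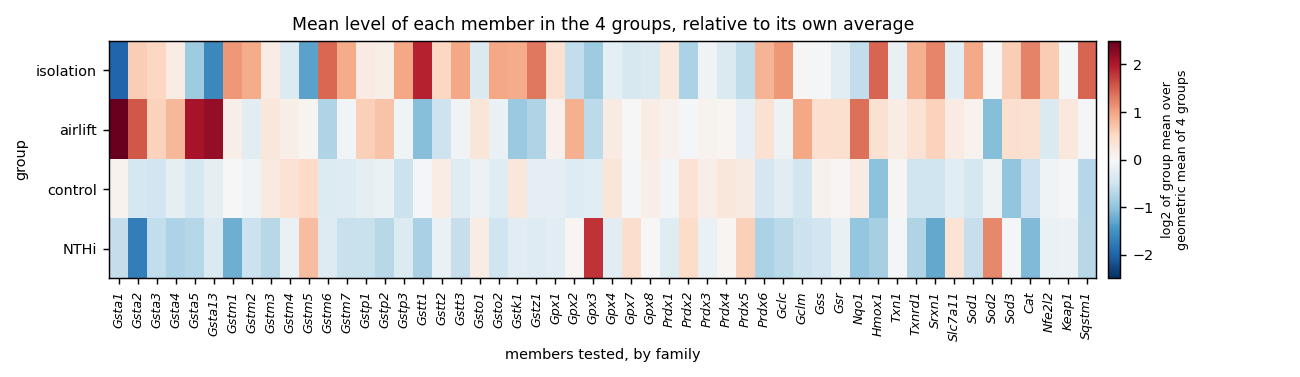
Mean level of the 52 members tested in the 4 groups, each as log2 over the geometric mean of the gene's own 4 group means (colour scale, red above and blue below; columns are genes by family, rows are groups). Of the Gsta genes, Gsta1, Gsta5 and Gsta13 are deepest red at airlift, while Hmox1, Sqstm1, Srxn1 and Gstt1 are red at isolation, and Gpx3 and Sod2 are red with NTHi.

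Genes that make and recycle glutathione moved apart from each other. Slc7a11 encodes the exchanger that brings cystine, the precursor of cysteine, into the cell. It was at 132, 142 and 98.03 CPM in the isolation libraries of experiments A, B and C, 128 to 222 CPM (median 175) at airlift, 76.9 to 169 CPM (median 131) in control and 87.95 to 242 CPM (median 197) with NTHi. The control and NTHi ranges overlapped, and NTHi C3 was the lowest NTHi library. The NTHi difference was 0.58 ± 0.20 (adjusted p = 0.03), higher with NTHi. That call ended on leaving out any 1 of 9 libraries (each of experiments A and B with the control or NTHi label, and NTHi C1), with log2 values of 0.49 to 0.59 and adjusted p of 0.0504 to 0.0794 in those fits. Its higher level at airlift than at isolation (0.50 ± 0.20, adjusted p = 0.034) and lower level in control than at airlift (-0.42 ± 0.16, adjusted p = 0.034) likewise ended without any 1 of 5 and of 8 libraries: the isolation libraries of A, B and C and airlift B1 and B2 for the first, and all 8 of experiments A and B for the second. Without them the values were 0.41 to 0.56 (adjusted p of 0.054 to 0.14) and -0.32 to -0.42 (adjusted p of 0.051 to 0.095).

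Gclc and Gclm encode the catalytic and the modifier subunit of glutamate-cysteine ligase, the rate-limiting enzyme of glutathione synthesis. Gclc was at 2847, 2843 and 2124 CPM at isolation, 934 to 1339.6 CPM (median 1117) at airlift, 503 to 1368 CPM (median 1019) in control and 479.6 to 934 CPM (median 836) with NTHi. Every airlift library lay below every isolation library (-1.19 ± 0.15), and control was lower than isolation (-1.34 ± 0.15). Airlift and control did not pass the test of their difference in the main fit (-0.15 ± 0.12, adjusted p = 0.33). Without the filter on low counts control was called lower (-0.13, adjusted p = 0.047). With NTHi the difference was -0.39 ± 0.13 (adjusted p = 0.029), and this call ended without control A1, C2 or C3 or NTHi A2, at -0.32 to -0.38 and adjusted p of 0.062 to 0.071. Gclm took another course, with 121, 126 and 98.1 CPM at isolation, 181 to 261 CPM (median 221) at airlift, 56.3 to 92.2 CPM (median 85.8) in control and 52.6 to 111 CPM (median 79.3) with NTHi. It rose to airlift in all 6 libraries (0.95 ± 0.12) and fell from airlift to day 4 (-1.41 ± 0.09), while NTHi and control did not pass the test (-0.08 ± 0.12, adjusted p = 0.62). Its level in control below isolation (-0.46 ± 0.11) had the opposite sign under scaling by totals, at 0.013.

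Gss encodes glutathione synthetase, which completes the molecule. It had group means ± SD (n = 3, 6, 7 and 7) of 22.01 ± 1.39, 30.1 ± 3.12, 24.2 ± 3.33 and 16.2 ± 1.77 CPM from isolation to NTHi, and every NTHi library lay below every control library (-0.58 ± 0.06, adjusted p = 2.8e-06). Gsr encodes glutathione reductase, which regenerates the reduced form with NADPH. It was at 136, 134 and 110.3 CPM at isolation, 189.7 to 213 CPM (median 197) at airlift, 128 to 172 CPM (median 155) in control and 118 to 157 CPM (median 131) with NTHi. The airlift libraries lay above all others of the isolation and control groups, with differences of 0.68 ± 0.08 from isolation and -0.37 ± 0.06 to control. NTHi and control overlapped and differed by -0.21 ± 0.06 (adjusted p = 0.0081).

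**Figure D3:**
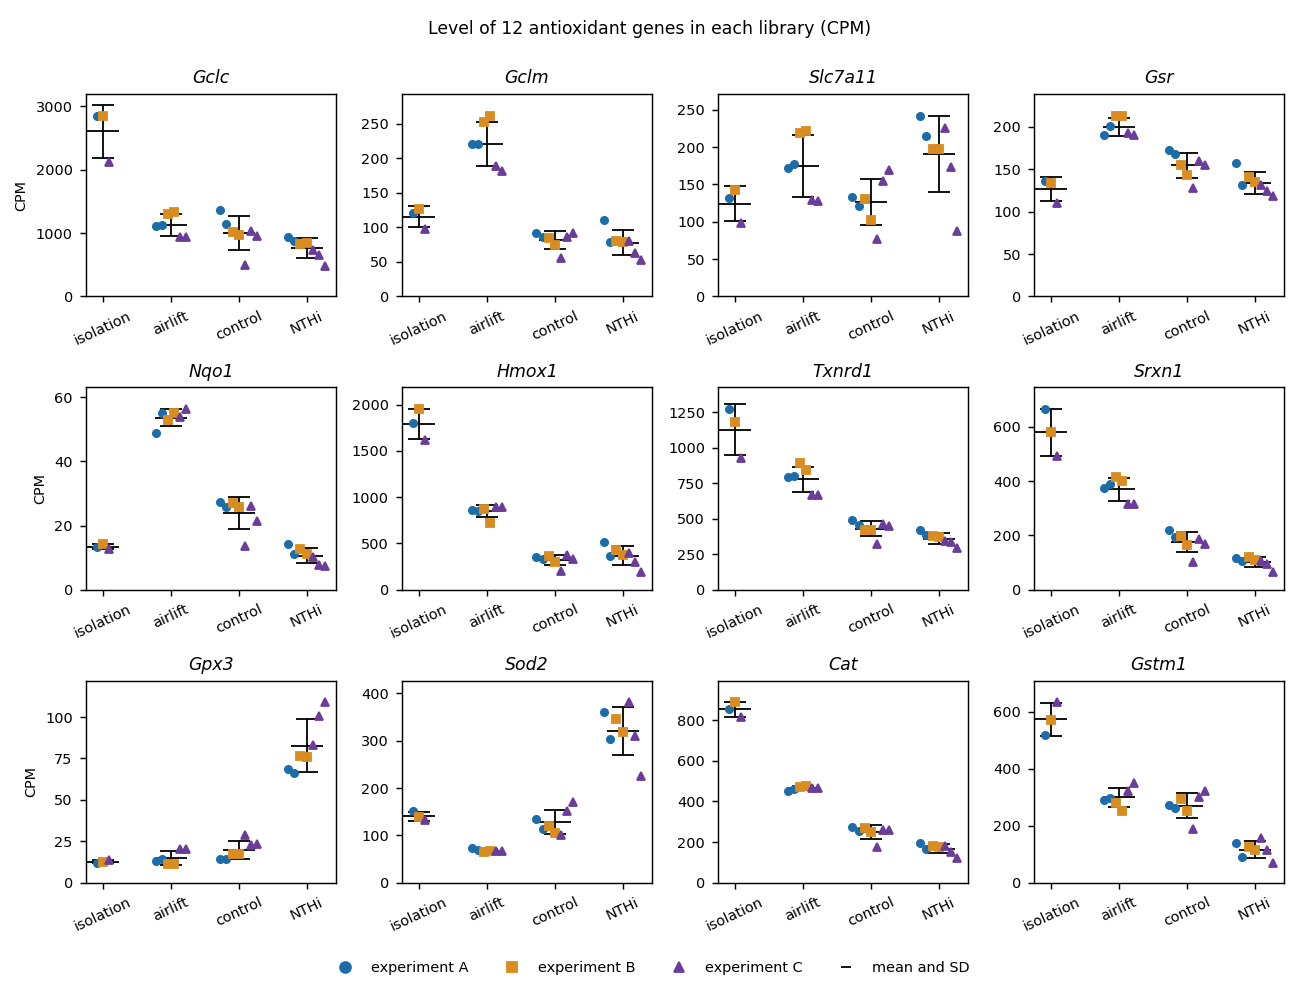
Level (CPM, linear axes from 0) of 12 members in each of the 23 libraries, by group; symbols give the experiment, and black bars the mean and SD of the group (n = 3, 6, 7 and 7). Nqo1 and Gclm stand highest at airlift, Hmox1, Txnrd1, Srxn1 and Cat step down from isolation to day 4, Gpx3 and Sod2 stand highest with NTHi, and the lowest triangles of control and NTHi are, in most panels, libraries C1 and C3.

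The alpha class transferases, Gsta, conjugate glutathione to electrophiles, among them products of lipid peroxidation. At airlift 5 of the 6 were called higher than at isolation and none lower, and at day 4 all 6 were called lower than at airlift. Of all genes, 37.9% were called higher and 36.7% lower at the first step, and 26.9% and 27.7% at the second. Gsta1 was at 5.40, 3.56 and 2.98 CPM at isolation, 77.3 to 97.5 CPM (median 89.8) at airlift, 5.36 to 21.5 CPM (median 18.04) in control and 3.11 to 14.6 CPM (median 10.9) with NTHi. The airlift libraries did not overlap with any other group, with differences of 4.51 ± 0.29 from isolation and -2.41 ± 0.17 to control. Gsta13 followed the same order, with 4.09, 2.22 and 3.47 CPM at isolation, 39.3 to 49.9 CPM (median 46.8) at airlift, 4.04 to 12.5 CPM (median 8.66) in control and 3.86 to 11.9 CPM (median 7.72) with NTHi. Its differences were 3.82 ± 0.22 at airlift over isolation and -2.43 ± 0.14 in control over airlift. Gsta5, at lower counts, was at 0.365, 0.494 and 0.728 CPM at isolation, 3.27 to 4.71 CPM (median 4.28) at airlift, 0.0945 to 1.23 CPM (median 0.822) in control and 0.357 to 0.767 CPM (median 0.612) with NTHi, with differences of 2.93 ± 0.39 and -2.51 ± 0.25 for the same steps.

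Gsta2 was at 23.4, 21.98 and 18.9 CPM at isolation, 39.5 to 42.8 CPM (median 41.4) at airlift, 3.78 to 14.3 CPM (median 11.5) in control and 1.94 to 6.95 CPM (median 4.04) with NTHi. It rose to airlift (0.97 ± 0.21), fell to day 4 (-1.997 ± 0.17) and was lower again with NTHi (-1.32 ± 0.23, adjusted p = 0.00036), although NTHi and control overlapped. Gsta4 was at 228, 257 and 261 CPM at isolation, 358 to 414 CPM (median 389) at airlift, 162 to 203 CPM (median 194) in control and 107 to 144 CPM (median 130.01) with NTHi. Every NTHi library lay below every control library (-0.56 ± 0.06, adjusted p = 2.9e-06), and airlift stood above all other groups (0.66 ± 0.07 over isolation). Control lay below isolation for Gsta4 (-0.41 ± 0.07), with the opposite sign under scaling by totals (0.065). On the TMM scale, Gsta3 differed from the others in having no call from isolation to airlift (0.07 ± 0.11, adjusted p = 0.55). Its means ± SD were 184 ± 19.3 and 191 ± 10.1 CPM, before a fall to 93.2 ± 13.3 CPM in control (-1.05 ± 0.08). Under scaling by totals Gsta3 was called higher at airlift than at isolation (0.56, adjusted p = 9.0e-05).

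With NTHi, 3 of the 6 Gsta genes were called lower and none higher (20.4% and 20.1% of all genes). The third, Gsta1, differed by -0.69 ± 0.24 (adjusted p = 0.034), and its call ended without any 1 of control A1, B1, C2 and C3 and NTHi A2, B2 and C2, at -0.56 to -0.69 with adjusted p of 0.057 to 0.082. Gsta13 and Gsta5 did not pass the test (-0.12 ± 0.16, adjusted p = 0.59, and -0.23 ± 0.29, adjusted p = 0.58). These genes resemble each other in sequence. In GENCODE M21 transcripts, 89.7% of the 50-base stretches of Gsta1 also occur in other genes, with Gm3776 sharing more of them than any other gene, and 47.4% of those of Gsta2, with Gsta1 sharing the most, so that their counts are uncertain between the copies. Gsta5 and Gsta13 had no transcript under those symbols there, so the stretches they share with other genes were not counted. Whether the changes of Gsta1, Gsta5 and Gsta13 are separate from each other was not tested.

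**Figure D4:**
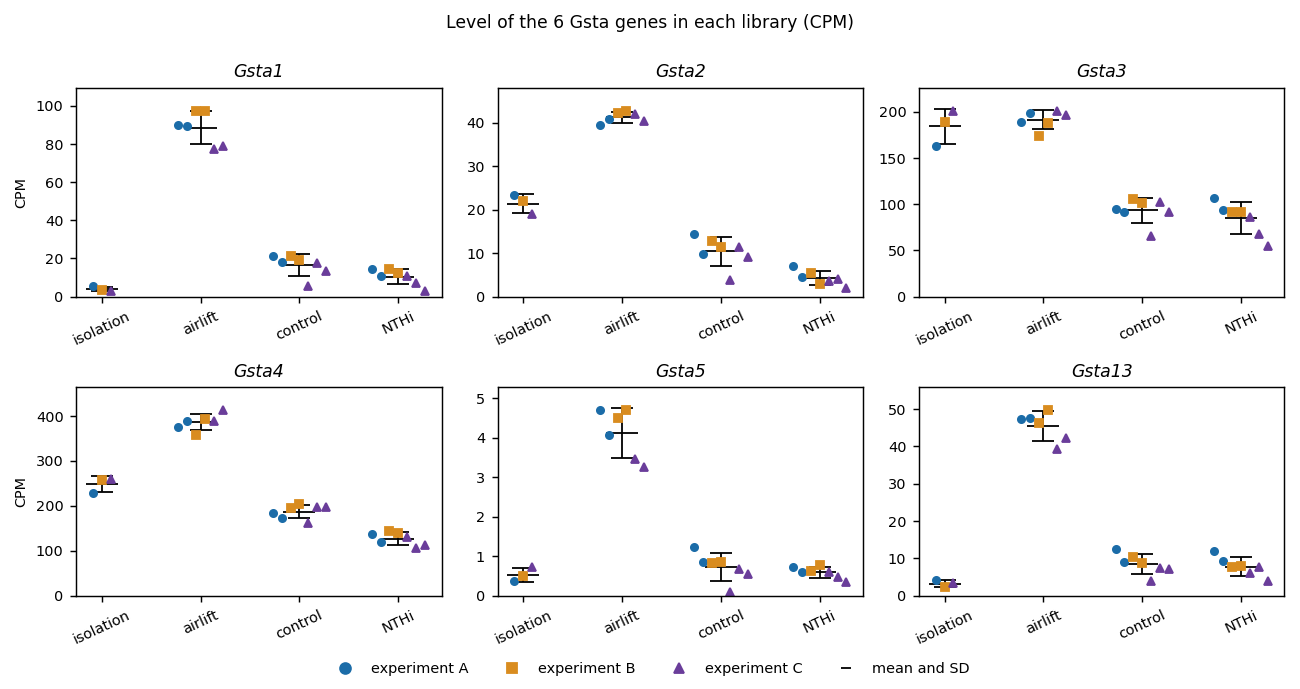
Level (CPM, linear axes from 0) of the 6 Gsta genes in each of the 23 libraries, by group; symbols give the experiment, and black bars the mean and SD (n = 3, 6, 7 and 7). In every panel except Gsta3 the 6 airlift libraries lie above all others.

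The mu class, Gstm, handles a similar range of electrophiles and took a different course. Of 7 genes, 2 were called higher and 4 lower at airlift than at isolation, and 2 higher and none lower from airlift to day 4. The shares of all genes called higher and lower were 37.9% and 36.7% at the first step and 26.9% and 27.7% at the second. Gstm1 was at 517, 571 and 633 CPM at isolation, 253 to 349.6 CPM (median 294) at airlift, 187 to 322 CPM (median 273) in control and 69.3 to 155 CPM (median 115) with NTHi. It fell from isolation to airlift (-0.93 ± 0.12), and was lower in every NTHi than in every control library (-1.22 ± 0.16, adjusted p = 2.3e-05). From airlift to day 4 it passed no test in the main fit (-0.17 ± 0.10, adjusted p = 0.15). Without the filter on low counts it was called lower there (-0.15, adjusted p = 0.024). Gstm2 was at 148, 163 and 181 CPM at isolation, 62.5 to 79.1 CPM (median 72.6) at airlift, 73.4 to 94.3 CPM (median 78.9) in control and 53.3 to 65.6 CPM (median 57.2) with NTHi. It too fell to airlift (-1.18 ± 0.07) and was below control in every NTHi library (-0.45 ± 0.06). Its call from airlift to day 4 (0.15 ± 0.06, adjusted p = 0.042) ended without any 1 of 9 libraries: airlift B1, B2, C1 and C2 and control A1, A2, B1, B2 and C1 (0.12 to 0.16, adjusted p of 0.051 to 0.11).

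Gstm4 was at 9.34, 9.42 and 11.5 CPM at isolation, 11.4 to 17.8 CPM (median 13.3) at airlift, 12.8 to 19.2 CPM (median 17.2) in control and 10.01 to 13.6 CPM (median 11.2) with NTHi, and it was lower with NTHi (-0.52 ± 0.07, adjusted p = 2.1e-05). Gstm3, at 1.93, 1.09 and 1.49 CPM, 1.36 to 1.80 CPM (median 1.68), 0.926 to 2.45 CPM (median 1.46) and 0.511 to 1.11 CPM (median 0.737) in the same order, was also lower with NTHi (-0.87 ± 0.19), with 28.8% of its 50-base stretches shared with other genes. Gstm5 ran the other way and was at 1.93, 1.80 and 1.94 CPM at isolation, 4.56 to 5.72 CPM (median 4.93) at airlift, 5.53 to 7.87 CPM (median 6.72) in control and 6.93 to 9.25 CPM (median 7.68) with NTHi. It was the Gstm gene called higher at both steps (1.42 ± 0.14 and 0.41 ± 0.09) and with NTHi (0.27 ± 0.07, adjusted p = 0.008). Gstm6 fell from 5.11, 5.47 and 8.11 CPM at isolation to 0.632 to 2.19 CPM (median 1.47) at airlift (-2.19 ± 0.27), and stood at 1.32 to 2.29 CPM (median 1.73) in control and 1.25 to 2.63 CPM (median 1.68) with NTHi, which did not pass the test (0.01 ± 0.17, adjusted p = 0.96).

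Among the 10 pi, theta, omega, kappa and zeta class genes tested, 7 were called lower and 3 higher at airlift than at isolation. With NTHi, 6 were called lower and 1 higher. The shares of all genes called lower and higher were 36.7% and 37.9% at airlift and 20.4% and 20.1% with NTHi. The theta gene Gstt1 was at 134, 130.2 and 121 CPM at isolation, 12.5 to 20.3 CPM (median 16.1) at airlift, 29.1 to 37.5 CPM (median 32.3) in control and 17.8 to 21.8 CPM (median 19.4) with NTHi. None of these ranges overlapped except those of airlift and NTHi, and the differences were -2.997 ± 0.10 at airlift, 1.0002 ± 0.09 from airlift to day 4 and -0.75 ± 0.06 with NTHi (adjusted p = 1.3e-07). Gstk1, whose enzyme is found in mitochondria and peroxisomes, had the same order, at 57.1, 59.7 and 55.2 CPM, 14.3 to 19.7 CPM (median 14.8), 31.7 to 40.6 CPM (median 35.99) and 22.95 to 26.1 CPM (median 24.4). Its differences were -1.84 ± 0.09, 1.19 ± 0.08 and -0.57 ± 0.05 for the same steps. Gstz1, an enzyme of tyrosine breakdown, was at 66.02, 67.1 and 74.8 CPM at isolation, 13.6 to 18.8 CPM (median 16.2) at airlift, 20.6 to 27.5 CPM (median 22.8) in control and 20.8 to 23.8 CPM (median 21.7) with NTHi. It fell to airlift (-2.06 ± 0.07) and rose to day 4 (0.48 ± 0.06), and NTHi passed no test (-0.09 ± 0.05, adjusted p = 0.18).

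Gstp2, a pi class gene, was at 5.98, 5.01 and 6.48 CPM at isolation, 6.33 to 10.3 CPM (median 8.55) at airlift, 3.73 to 5.78 CPM (median 4.61) in control and 2.47 to 5.26 CPM (median 3.06) with NTHi, and was lower with NTHi (-0.55 ± 0.14, adjusted p = 0.0046). Its neighbour in sequence Gstp1 had group means ± SD of 160.4 ± 1.36, 211 ± 16.2, 118 ± 13.5 and 95.2 ± 11.96 CPM and differed by -0.31 ± 0.09 with NTHi. Of their 50-base stretches, 50.4% of those of Gstp2 and 51.0% of those of Gstp1 occur in other genes, so their reads may be split between them. Gsto1, of the omega class, was the 1 gene of this set called higher with NTHi (0.32 ± 0.06, adjusted p = 0.00058), with means ± SD of 597 ± 92.7 CPM in control and 747 ± 139 CPM with NTHi. Against isolation, Gstp1 and Gstt2 were lower at day 4 (-0.44 ± 0.09 and -0.34 ± 0.12), and both had the opposite sign under scaling by totals (0.031 and 0.14). The call for Gstt2 there also ended without the isolation library of experiment B (-0.30, adjusted p = 0.069).

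Of the 6 glutathione peroxidases tested, 3 were called higher and 2 lower with NTHi (20.1% and 20.4% of all genes). Gpx3 encodes the secreted form found in plasma and airway lining fluid. It was at 12.01, 12.5 and 13.7 CPM at isolation, 11.3 to 20.5 CPM (median 13.6) at airlift, 14.4 to 29.05 CPM (median 17.4) in control and 66.2 to 109 CPM (median 76.4) with NTHi. All 7 NTHi libraries lay above all other libraries of the series, with a log2 change of 2.08 ± 0.07 (adjusted p = 7.9e-12), the highest among the 52 members. Gpx2, the form best known from the gut epithelium, was at 84.4, 95.5 and 111 CPM at isolation, 264 to 286 CPM (median 277) at airlift, 87.7 to 138 CPM (median 123) in control and 135 to 179 CPM (median 163) with NTHi. It peaked at airlift (1.52 ± 0.11 over isolation, -1.21 ± 0.08 from airlift to day 4) and was higher with NTHi than in control (0.37 ± 0.08, adjusted p = 0.0011), with overlapping ranges. Its small excess in control over isolation (0.31 ± 0.10) ended without the isolation library of experiment A or B (0.21 and 0.27, adjusted p of 0.095 and 0.052).

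Gpx4 encodes the enzyme that reduces lipid hydroperoxides within membranes. It was at 238, 225 and 233 CPM at isolation, 305 to 322 CPM (median 317) at airlift, 264 to 375 CPM (median 334) in control and 196 to 255 CPM (median 232) with NTHi. Every NTHi library lay below every control library (-0.57 ± 0.06, adjusted p = 2.9e-06), while airlift lay above isolation (0.46 ± 0.07). In the transcripts, 51.4% of its 50-base stretches also occur in other genes, of which the pseudogene Gpx4-ps2 shares the most. Gpx7 and Gpx8 encode forms of the endoplasmic reticulum. Gpx7 was at 4.12, 3.32 and 4.02 CPM at isolation, 4.58 to 5.66 CPM (median 5.02) at airlift, 4.14 to 5.72 CPM (median 5.06) in control and 6.29 to 7.26 CPM (median 6.76) with NTHi, where every library was above every control library (0.45 ± 0.08, adjusted p = 0.00027). Gpx8 was at 42.95, 47.6 and 49.5 CPM, 60.4 to 77.4 CPM (median 67.7), 60.1 to 72.4 CPM (median 65.8) and 54.9 to 70.1 CPM (median 59.2) in the same order, rose from isolation to airlift (0.56 ± 0.07) and was slightly lower with NTHi (-0.15 ± 0.05, adjusted p = 0.027), a call that ended without control B1 or NTHi B2 (-0.13 in both, adjusted p of 0.053 and 0.059). Gpx1, the cytosolic form, passed no test with NTHi (-0.03 ± 0.06, adjusted p = 0.72), and its fall from isolation to airlift (-0.26 ± 0.06) turned to a rise under scaling by totals (0.22).

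Peroxiredoxins were called lower with NTHi in 4 of 6 cases and higher in 1 (20.4% and 20.1% of all genes). Prdx6, the peroxiredoxin with a single catalytic cysteine and a role in surfactant phospholipid turnover, was at 1069, 1244 and 1219 CPM at isolation, 805 to 921 CPM (median 832) at airlift, 458 to 508 CPM (median 498) in control and 363 to 419 CPM (median 377) with NTHi. No ranges of the 4 groups overlapped, and the differences were -0.44 ± 0.06, -0.82 ± 0.05 and -0.37 ± 0.03 for the 3 steps, the first with the opposite sign under scaling by totals (0.039). Prdx3, the mitochondrial form, was at 50.1, 53.4 and 47.9 CPM at isolation, 54.96 to 58.3 CPM (median 56.7) at airlift, 49.5 to 63.7 CPM (median 61.6) in control and 44.4 to 51.8 CPM (median 48.4) with NTHi. It was lower with NTHi (-0.32 ± 0.05, adjusted p = 8.5e-05), and control C1 alone fell within the NTHi range. Prdx5, found in several compartments, was the peroxiredoxin called higher with NTHi, at 123, 121 and 145 CPM at isolation, 147 to 193 CPM (median 177) at airlift, 197 to 270.4 CPM (median 232) in control and 187 to 392 CPM (median 309.6) with NTHi. The difference was 0.36 ± 0.13 (adjusted p = 0.039), and leaving out any 1 of 10 of the 14 libraries (all but NTHi A2 and C3 and control C2 and C3) ended it, at 0.28 to 0.38 and adjusted p of 0.052 to 0.11. It also ended under scaling by totals (0.30, adjusted p = 0.059).

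Prdx2, an abundant cytosolic form of red cells and other tissues, rose at both untreated steps: 97.9, 105 and 109 CPM at isolation, 161 to 189 CPM (median 171) at airlift and 199 to 246 CPM (median 233) in control (0.76 ± 0.07 and 0.38 ± 0.06). With NTHi it was at 231 to 263 CPM (median 243), which did not pass the test (0.11 ± 0.05, adjusted p = 0.096), though it did without control C1 (0.13, adjusted p = 0.039). Markers of red cells summed to at most 1.48 CPM in any library, and their part in the Prdx2 values was not tested. Prdx4 and Prdx1, of the endoplasmic reticulum and the cytosol, were called lower with NTHi (-0.24 ± 0.05 and -0.23 ± 0.08). The call for Prdx1 (adjusted p = 0.039) ended without any 1 of 8 libraries (control A1, B1, C2 and C3 and NTHi A2, B2, C2 and C3), at -0.18 to -0.24 and adjusted p of 0.056 to 0.10. Against isolation, Prdx1 was lower in control (-0.33 ± 0.09) and uncalled at airlift (-0.16 ± 0.09), and under scaling by totals both had the opposite sign (0.14 and 0.33).

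Srxn1 and Txnrd1, which keep the peroxiredoxin cycle running, were called lower at each later stage on the TMM scale. Srxn1 encodes sulfiredoxin, which restores over-oxidised peroxiredoxins. It was at 666, 581 and 494 CPM at isolation, 317 to 417 CPM (median 383) at airlift, 102 to 219 CPM (median 187) in control and 65.7 to 119.6 CPM (median 104) with NTHi. The 3 untreated stages did not overlap (-0.63 ± 0.12 and -1.06 ± 0.10), and NTHi was lower than control (-0.78 ± 0.12, adjusted p = 0.00014), where only control C1 lay within the NTHi range. Txnrd1 encodes thioredoxin reductase of the cytosol. It was at 1272, 1180.1 and 928 CPM at isolation, 666 to 889 CPM (median 796) at airlift, 322 to 487 CPM (median 447) in control and 293 to 422 CPM (median 373) with NTHi, with differences of -0.52 ± 0.09, -0.83 ± 0.08 and -0.26 ± 0.07 (adjusted p = 0.0085 for NTHi). Under scaling by totals the first step passed no test for Srxn1 (-0.15, adjusted p = 0.26) or Txnrd1 (-0.032, adjusted p = 0.75). Txn1 encodes the cytosolic thioredoxin that thioredoxin reductase recycles. It was at 384, 366 and 309 CPM at isolation, 434 to 498 CPM (median 438) at airlift, 315 to 468 CPM (median 421) in control and 328 to 451 CPM (median 399) with NTHi. It was called at the first step (0.38 ± 0.10, adjusted p = 0.0026), but not for control over airlift (-0.17 ± 0.08, adjusted p = 0.085) or NTHi (-0.06 ± 0.09, adjusted p = 0.66). Control over airlift did pass under several alternatives, among them scaling by totals (-0.18, adjusted p = 0.043) and the replicate block (-0.20, adjusted p = 0.042). Control over isolation, also uncalled, passed with counts summed per experiment and group (0.25, adjusted p = 0.0081).

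The 3 superoxide dismutases differed in direction with NTHi. Sod2, the mitochondrial enzyme and a known target of inflammatory signalling, was at 151, 138 and 132 CPM at isolation, 63.9 to 72.7 CPM (median 66.4) at airlift, 102 to 170.1 CPM (median 119.96) in control and 225 to 382 CPM (median 319) with NTHi. Every NTHi library lay above every library of the other groups (1.33 ± 0.13, adjusted p = 1.1e-06). Before that it fell to airlift (-1.04 ± 0.12) and rose to day 4 (0.90 ± 0.10). Control and isolation passed no test in the main fit (-0.14 ± 0.12, adjusted p = 0.28). Under scaling by totals Sod2 was called higher in control than at isolation (0.33, adjusted p = 0.012). Without experiment C it was called lower there (-0.29, adjusted p = 0.0015). Sod3, the secreted enzyme, was at 1.68, 1.76 and 2.36 CPM at isolation, 1.32 to 2.04 CPM (median 1.68) at airlift, 0.199 to 0.991 CPM (median 0.661) in control and 0.661 to 2.02 CPM (median 1.23) with NTHi. It was higher with NTHi (0.94 ± 0.28, adjusted p = 0.014), a call that ended without experiment C (0.79, adjusted p = 0.13). Sod1, the cytosolic enzyme, had means ± SD of 236 ± 5.58, 130.3 ± 14.01, 91.4 ± 4.25 and 82.2 ± 8.32 CPM from isolation to NTHi. It fell at both untreated steps (-0.85 ± 0.07 and -0.53 ± 0.05) and by a small amount with NTHi (-0.16 ± 0.04, adjusted p = 0.0063). The NTHi log2 ratios were -0.32, -0.07 and -0.11 in experiments A, B and C. Sod1 was the member with an unadjusted p below 0.05 (0.030) in the edgeR test between experiments. Its NTHi call ended without experiment A (-0.10, adjusted p = 0.059) and with no experiment term (-0.15, adjusted p = 0.052). Cat, catalase, had means ± SD of 853 ± 36.4, 465.6 ± 7.99, 249.7 ± 34.1 and 168 ± 24.1 CPM, with differences of -0.86 ± 0.09, -0.90 ± 0.07 and -0.58 ± 0.09 for the 3 steps.

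Nqo1 and Hmox1 are widely used readouts of NRF2 activity, and they moved in opposite directions from isolation to airlift. Nqo1, which reduces quinones, was at 13.3, 14.2 and 12.8 CPM at isolation, 48.8 to 56.3 CPM (median 54.5) at airlift, 13.6 to 27.3 CPM (median 25.9) in control and 7.40 to 14.2 CPM (median 10.995) with NTHi. It rose to airlift in all 6 libraries (2.02 ± 0.15), fell to day 4 (-1.18 ± 0.11) and fell again with NTHi (-1.18 ± 0.12, adjusted p = 1.9e-06). Control C1 alone overlapped with the NTHi libraries. Hmox1, which degrades haem, was at 1803, 1953 and 1622 CPM at isolation, 722 to 896 CPM (median 865) at airlift, 198 to 374 CPM (median 331) in control and 191 to 517 CPM (median 377) with NTHi. It stepped down at both untreated stages without overlap (-1.06 ± 0.13 and -1.41 ± 0.11), and NTHi against control did not pass the test (0.18 ± 0.16, adjusted p = 0.42). Hmox1 was called higher with NTHi when counts were summed per experiment and group (0.21, adjusted p = 0.034) and without experiment C (0.33, adjusted p = 0.017). Macrophages express Hmox1, and the 10 macrophage markers summed to 922 to 1053 CPM at isolation, 731 to 841 at airlift, 739.9 to 1561 in control and 205 to 791 with NTHi. Of these markers 1 was called higher and 7 lower with NTHi, led by C1qc (-4.67 ± 0.22), beside 20.1% and 20.4% of all genes. The part of these markers in the members' values was not tested.

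None of the 3 regulators Nfe2l2, Keap1 and Sqstm1 was called with NTHi on the TMM scale. Nfe2l2 was at 628, 643 and 582 CPM at isolation, 289 to 335 CPM (median 307) at airlift, 300.4 to 401 CPM (median 377) in control and 319 to 391 CPM (median 352) with NTHi. It fell to airlift (-0.98 ± 0.07), rose to day 4 (0.25 ± 0.06) and passed no test with NTHi (-0.06 ± 0.05, adjusted p = 0.37). Keap1 was at 63.7, 59.3 and 56.1 CPM, 63.4 to 77.97 CPM (median 75.9), 54.2 to 63.9 CPM (median 59.3) and 45.98 to 62.7 CPM (median 56.04) in the same order, with a rise to airlift (0.32 ± 0.07), a fall to day 4 (-0.32 ± 0.05) and no call with NTHi (-0.09 ± 0.05, adjusted p = 0.2). Under scaling by totals both passed the test with NTHi (Nfe2l2 at -0.12, adjusted p = 0.043; Keap1 at -0.15, adjusted p = 0.031), and Keap1 was higher in control than at isolation (0.47), where the TMM value was -0.001 ± 0.06. Sqstm1 encodes an autophagy receptor that binds KEAP1. It was at 5388, 4997 and 4044 CPM at isolation, 1398 to 1973 CPM (median 1776) at airlift, 809 to 1216 CPM (median 1095) in control and 770.4 to 1390.02 CPM (median 1117) with NTHi, with differences of -1.48 ± 0.10 and -0.67 ± 0.08 between the untreated stages and no call with NTHi (0.01 ± 0.10, adjusted p = 0.93). These are RNA levels, and NRF2 is regulated largely through its protein.

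Other genes of these pathways were counted from 8 lists, to be read beside the 20.1% of all genes called higher and the 20.4% called lower with NTHi. The lists, too, were chosen with earlier results of these data known. With NTHi, oxidant-producing enzymes were called higher in 7 of 14 tested and lower in 4, led by Duox2 (6.45 ± 0.16) and its maturation factor Duoxa2 (6.51 ± 0.21), which make hydrogen peroxide at the cell surface, and by the oxidase partners Noxo1 (3.14 ± 0.09) and Noxa1 (3.02 ± 0.11). Of 10 genes that supply NADPH, 1 was called higher and 4 lower: H6pd, of the endoplasmic reticulum, was at 2.03 ± 0.05, and the pentose phosphate genes Taldo1 and G6pdx were at -0.42 ± 0.11 and -0.24 ± 0.08. Of 17 genes of NRF2-linked detoxification and iron handling, 3 were higher and 8 lower, with Aldh3a1 (1.41 ± 0.14) and Abcc1 (0.54 ± 0.05) up and Osgin1 (-1.06 ± 0.06) and Ephx1 (-0.62 ± 0.04) down. Regulators of NRF2 activity were higher in 6 and lower in 1 of 11, with Nfe2l3, a relative of NRF2, at 0.79 ± 0.06.

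Glutathione turnover and precursor genes were higher in 1 and lower in 6 of 15, with the glutamate and cysteine carrier Slc1a1 up (1.23 ± 0.09) and Slc1a5 down (-0.45 ± 0.04). Microsomal transferases and their relatives were higher in 1 and lower in 4 of 7. Ptges, which makes prostaglandin E, was up (1.67 ± 0.07). Ltc4s and Alox5ap, of leukotriene synthesis in leukocytes, were down (-3.24 ± 0.18 and -2.03 ± 0.24). The macrophage markers given above were lower too, and their part in the values of Ltc4s and Alox5ap was not tested. Glutaredoxins and other thioredoxin genes were higher in 2 (Glrx at 0.50 ± 0.09) and lower in 1 of 11, both below the shares of all genes. The last list held Msra, Msrb1, Msrb2 and Msrb3, which repair oxidised protein, with Sesn1, Sesn2, Sesn3, Park7 and the copper chaperone Ccs. It was lower in 5 of 9 and higher in none, with Msrb1 (-0.76 ± 0.12) and Msra (-0.55 ± 0.09) among the lower genes.

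From airlift to day 4 without NTHi, the NRF2-linked detoxification list was called higher in 1 and lower in 13 of 17, with the smallest adjusted p-values for Abcc3 (-1.21 ± 0.07) and Slc48a1 (-0.99 ± 0.07). NADPH supply was higher in 2 and lower in 6 of 10, with the smallest adjusted p-values for Me1 (-0.65 ± 0.04) and Tkt (-0.80 ± 0.06). Of all genes, 26.9% were called higher and 27.7% lower there. From isolation to airlift, on the TMM scale, the same lists were higher in 12 and lower in 3, and in 6 and 3. Akr1b8 (1.72 ± 0.12) and Me1 (1.16 ± 0.06) were among those that rose, where 37.9% of all genes were called higher and 36.7% lower. At that step, glutathione turnover genes were higher in 3 and lower in 12 of 16, and microsomal transferases in 2 and 5 of 7. Glutaredoxins and thioredoxins were higher in 6 and lower in 2 of 11, and NRF2 regulators in 4 and 7 of 11. Oxidant-producing enzymes were higher in 3 and lower in 4 of 14, and the protein repair list in 3 and 5 of 9. From airlift to day 4 the calls were, in that order, 5 and 7, 2 and 3, 4 and 6, 1 and 5, 6 and 6, and 5 and 2. The fall of club and type 2 cell markers from isolation to airlift, given at the start, went with the comparisons against isolation, and its part in them was not tested.

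The libraries that stood apart held the lowest value of their group for a larger share of the members than of all genes. Control C1 held the lowest control value for 35 of the 52 members (67.3%), beside 23.1% of all genes, and NTHi C3 the lowest NTHi value for 30 (57.7%), beside 22.7%. Both also had the lowest macrophage marker sum of their group (739.9 and 205 CPM) and the highest mesenchymal marker sum (454 and 491 CPM, where the other day 4 libraries had 179.6 to 377). Without both libraries, an alternative chosen after seeing the data, 10 members were called higher and 27 lower with NTHi, among 6816 genes called, and no member lost its call. Their part in the members' spread was not otherwise tested.

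**Figure D5:**
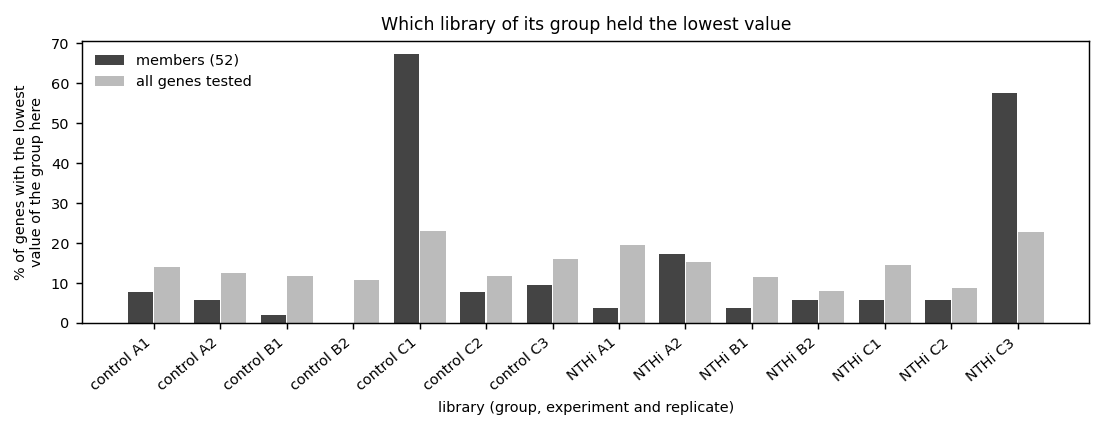
Share of genes (vertical axis, percent) whose lowest value in the group fell in each of the 14 day 4 libraries, for the 52 members tested (dark bars) and for all genes tested (light bars). Control C1 and NTHi C3 reach 67.3% and 57.7% of members, beside 23.1% and 22.7% of all genes.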

How the data were processed

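RNA was sequenced in bulk from 23 libraries in 3 experiments and 4 groups, grouped as the labels say. For each experiment the authors deposited a table of raw gene counts, which are whole numbers without normalisation (3 tables). Per the submitters' processing notes, STAR, DESeq2 and build GRCm39 were used (no versions named). The sources used here do not give the counting tool, its use of strand or what it did with reads that map to several genes, so overlapping, antisense and near-identical genes are uncertain. Of 41098 lines per table, 25 fragments of broken lines (0 to 0.0822% of a library's counts) were left out. Among counts below 20, 69.3% to 74.9% were even, and the sources used here do not say whether reads or fragments were counted. If mates were counted separately, counts exceed the number of fragments, and the limits for a count of 0 are too low.

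The members and lists were chosen with earlier results of these data known. Counts were fitted with edgeR 4.0.16 in R 4.3.3: filterByExpr (minimum count 10), TMM, group and experiment as terms, a quasi-likelihood F-test and Benjamini-Hochberg adjustment over all genes (threshold 0.05). The NTHi comparison used the 14 libraries of day 4, and the comparisons among isolation, airlift and control used their 16. The SE is the log2 fold change divided by the square root of F. By a chi-square test of gene counts, halved for this reason, replicate pairs of an experiment gave 1.54 to 47.0 per degree of freedom, where sampling noise gives about 1, and were kept as separate libraries. Alternatives were DESeq2 1.42.0 and its size factors, library totals, halved counts, no filter, no experiment term, summed counts, all 23 libraries, a replicate block, and leaving out each experiment or library. Which genes have values given by library followed a written rule: 12 set genes and, per family, up to 3 with the largest log2 change in each of 2 comparisons, which gave 38. The text also describes other members by group means. Promoters were RefSeq's (GRCm38.p6), and shared 50-base stretches were counted in GENCODE M21 transcripts, matched by symbol.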

Additional observations from a re-analysis of the deposited data

Results flagged for a closer look

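Of 156 sets of values (each of the 52 tested members in the airlift, control and NTHi groups), 11 held a highest or lowest library far from the rest by Dixon's test, where chance flags about 1 in 20. Control C1 was the lowest control library in 7 of them: Gsta3 at 65.41 CPM (next 91.9), Gpx2 at 87.66 (next 118), Prdx3 at 49.52 (next 58.9), Hmox1 at 198.1 (next 303), Txnrd1 at 321.8 (next 421), Cat at 175.1 (next 248.7) and Nfe2l2 at 300.4 (next 359). Gstt2 was lowest in control C3, at 16.01 CPM. Hmox1 was lowest at airlift in library B2, at 721.5 CPM (next 849). With NTHi, Gstp2 was highest in B2, at 5.26 CPM, and Prdx6 in A1, at 418.8 CPM.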

How the results depend on the processing

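Each comparison kept its counts of genes called and of members called higher and lower within 1.5 times under every alternative run. Scaling by library totals turned 3 members of airlift against isolation (Gpx1 to 0.22, Prdx1 to 0.33 and Prdx6 to 0.039) and 7 of control against isolation (Gclm to 0.013, Gsta4 to 0.065, Gstp1 to 0.031, Gstt2 to 0.14, Keap1 to 0.47, Prdx1 to 0.14 and Sod2 to 0.33). Under that scaling the median of all genes was 0.49 in both comparisons, where TMM gave 0.0026 and 0.017. Which of the 2 scales is nearer to the true levels was not tested.

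Leaving out 1 library at a time gave 6069 to 6702 genes called for NTHi (7 to 9 members higher and 24 to 27 lower), 12799 to 13579 for airlift against isolation (24 to 25 and 22), 9393 to 9968 for control against airlift (11 to 14 and 26 to 29) and 13247 to 14024 for control against isolation (13 to 17 and 27 to 29). Over all alternatives, 66 of 1404 member results for NTHi lost the call and 6 gained it, with 10 members losing a call somewhere. Leaving out a whole experiment, and with it 4 to 6 libraries, ended the NTHi calls of those 10 members: Slc7a11 (0.47 without A, 0.50 without B), Gclc (-0.36 and -0.45), Gsta1 (-0.71 and -0.73), Prdx5 (0.35 and 0.30), Sod1 (-0.10 without A), Gstp1 (-0.30 without B), Gstm5 (0.27 without B or C), Gpx8 (-0.11 without B, -0.16 without C), Sod3 (0.79 without C) and Prdx1 (-0.26, -0.21 and -0.22 without A, B and C). Hmox1 passed the test without C (0.33), and also with counts summed per experiment and group (0.21, adjusted p = 0.034). The cause was not tested. A change of sign in a member called in neither fit (21 of those 1404) was counted as no change. With the replicate block, 5982 genes were called for NTHi, with 7 members higher and 25 lower, and 8768 for control against airlift. Under it the NTHi calls of Slc7a11 (0.58), Gclc (-0.37), Gsta1 (-0.69) and Prdx5 (0.34) did not pass the test, with adjusted p of 0.066 to 0.079. Same-numbered NTHi and control libraries correlated in their deviations at 0.23 in experiment A and 0.43 in B, where 2 libraries per group give 1 value. In C the values were -0.78, 0.39 and -0.61 for numbers 1, 2 and 3. Control C1 and NTHi C3 stood apart, so these values cannot decide whether the numbers are pairs. The main fit did not take them as pairs, and isolation libraries carry no number. The bulk levels limit what can be said of any cell type, and members at a few CPM (Gsta5, Gstm3, Sod3) rest on the fewest reads.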
